A study of Mus musculus with 2 samples.

Results

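Imprinted genes are the 43 genes described here, in the ovary of an F1 hybrid mouse. They were taken by name from the GENCODE models on GRCm38, where all 43 matched 1 entry each, out of 55413 annotated genes. For each gene, the promoter peaks were those within 500 bp of any annotated start site, and the gene body peaks were those with their centre between the ends of the gene. The measurement is DNase-seq, in which the enzyme DNase I cuts DNA that is not wrapped in nucleosomes, so that a peak of cuts marks open chromatin. A footprint is a short stretch inside an open site where bound protein kept the cuts away. There was 1 group, ovary tissue of B6CASTF1/J females, the cross of the C57BL/6J and CAST strains, at 36 days of age. It held 2 libraries, replicates 1 and 2. The labels number the 2 females differently and give both the same donor entry, so each library was taken as 1 animal.

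An imprinted gene is expressed mainly from 1 parent's copy. The mark that tells the copies apart is DNA methylation laid down in the egg or the sperm, at regions called germline differentially methylated regions, and kept in the body's cells by proteins such as ZFP57 and TRIM28. In the ovary these genes are read in many cell types, and growing oocytes are where maternal methylation is set. The deposited files add up the maternal and the paternal copy, so no value below is that of 1 allele, although the hybrid cross would carry variants between the copies. In bulk tissue, fewer cells of a type with an open site and less opening per cell cannot be told apart. With 1 group of 2 animals, no test between conditions exists, and every comparison below is a description of these 2 libraries.

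The libraries held 109169 and 114462 peaks, with 301406 and 294269 footprints. Each peak has a signal value from the authors, on a scale that no source used here defines, and the median peak had a value of 0.808 in replicate 1 and 0.648 in replicate 2. Values in the 2 libraries were whole multiples of 1 step, and a median peak rested on 124 and 99 steps. Promoter values differed between the libraries as a whole: 96.7% of protein-coding genes with a promoter peak in both were higher in replicate 1, with a median log2 ratio of replicate 2 over replicate 1 of -0.88 ± 0.39 (SD over 14631 genes). Markers of ovarian somatic cells were mostly open: promoters of 6 of 6 granulosa genes (Foxl2 and Inha among them) and of 4 of 5 theca and steroidogenic genes carried a peak in both libraries, where 66.7% of protein-coding genes did. So did 4 of 4 stromal and smooth muscle markers, 2 of 4 endothelial and 2 of 4 surface epithelial ones. Of 5 oocyte markers only Gdf9 did, with 14.7 and 8.57, while Bmp15, Figla, Ddx4 and Zp3 had no promoter peak in either library. Among markers of other cells the counts were 1 of 3 for adipocytes, 1 of 4 for myeloid cells, 1 of 4 for lymphocytes and 2 of 4 for hepatocytes. Oviduct markers were also open (4 of 4, with Rsph1 at 22.9 and 14.2 and Foxj1 at 11.8 and 7.13), and their part in the values below was not tested.

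Most imprinted promoters were open in both ovaries. A promoter peak was present in both libraries for 37 of the 43 genes (86%), where 33.9% of all annotated genes and 66.7% of protein-coding genes had one. Protein-coding members numbered 31 of 35 open, and noncoding members 6 of 8, against 26.2% of genes with the same noncoding annotation. The share was close to what promoters of this kind give: 34 of the 36 members with a CpG-rich start (an observed over expected CpG ratio of at least 0.6) were open, and so were 95.5% of CpG-rich protein-coding genes. Of the 7 members below that ratio 3 were open (Airn, Peg3 and Kcnq1ot1), against 29.1% of such protein-coding genes. The number of start sites bears on the call too. The members had a median of 5 annotated start sites against 3 for protein-coding genes, and 92.6% of protein-coding genes with at least 5 were open.

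By expressed copy, as given in textbooks and not measured here, 22 of 26 paternally expressed genes and 14 of 16 maternally expressed genes were open at the promoter in both ovaries. Gnas, whose transcripts differ in their expressed copy, was counted in neither list and was open. All 20 genes whose own promoter lies at a germline differentially methylated region were open, against 17 of the other 23. Among members with a CpG-rich start these counts were 17 of 17 and 17 of 19, and by expressed copy 19 of 20 paternally and 14 of 15 maternally expressed genes, where 95.5% of CpG-rich protein-coding genes were open. For the 20 genes too, a peak at any start of the gene was counted, and that start need not be the methylated one. The 6 genes not called in both were Igf2, Magel2, Rian, Ndn, Rtl1 and Mirg, all outside that list of 20. Of these 6, 3 lie at the Dlk1 to Meg3 locus and 2 lie near Snrpn. A weaker sign of opening, a base listed with a false discovery rate under 0.05 within 500 bp of a start, was present for 0 of the 4 members without a promoter peak in replicate 1 and for 1 of 5 in replicate 2 (Magel2). The shares among protein-coding genes without a promoter peak were 2.27% and 2.58%.

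**Figure D1:**
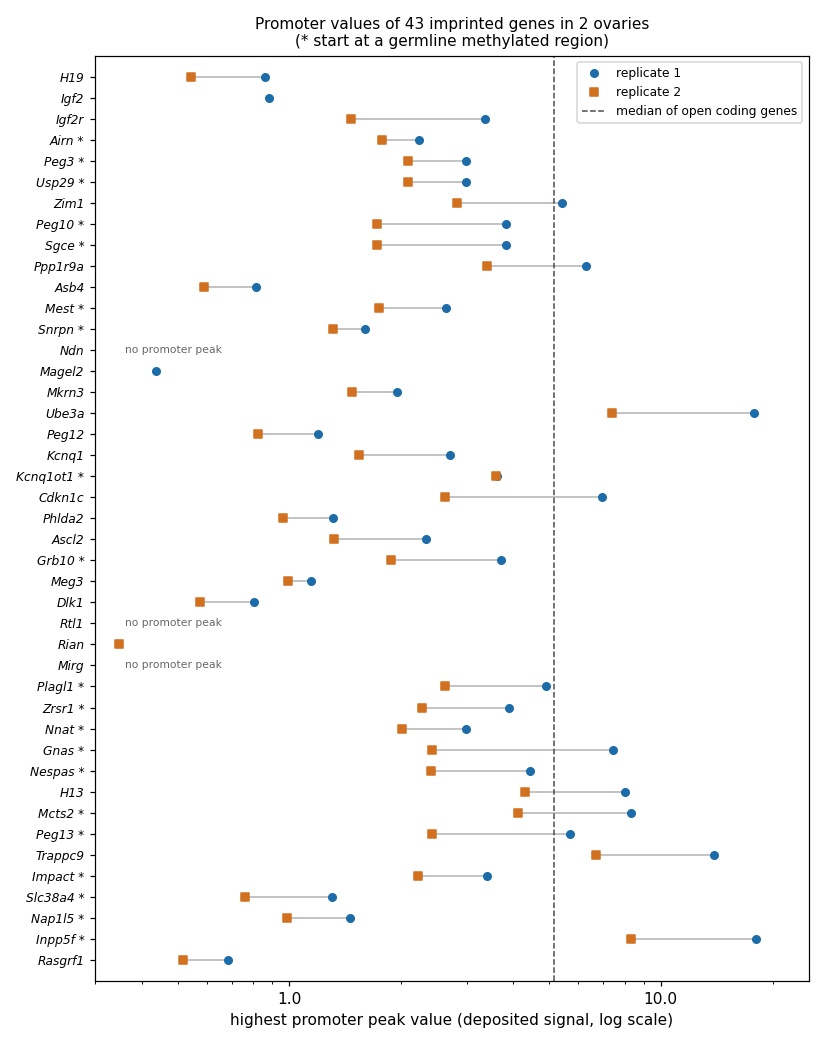
Highest promoter peak value (deposited signal, log axis) of each of the 43 imprinted genes, in replicate 1 (circles) and replicate 2 (squares), with the median of open protein-coding genes at 5.15 as a dashed line and genes whose start lies at a germline methylated region marked by a star. Inpp5f, Ube3a and Trappc9 stand highest, 32 of the 37 genes open in both libraries have a mean left of the line, and 3 genes have no promoter peak. For every gene the points show its strongest start. The methylated starts of Inpp5f and Gnas, described below, had lower values, and the points of Slc38a4 come from near an internal start.

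The open promoters were mostly of modest height. The median over the 37 genes of the mean value of both libraries was 2.54, against 5.15 for protein-coding genes with a promoter peak in both libraries and 6.14 for the CpG-rich ones. Below the protein-coding median lay 32 of the 37, where 50% do by construction, and 15 lay below its 25th percentile of 2.30, where 25% do. Only 5 lay above the median. Inpp5f, an inositol phosphatase gene, had 18.02 in replicate 1 and 8.34 in replicate 2 (mean 13.2 ± 6.84, SD, n = 2). Ube3a, a ubiquitin ligase gene imprinted in neurons, had 17.8 and 7.41 (12.6 ± 7.33). Trappc9, which codes for a vesicle tethering factor, had 14.0 and 6.67 (10.3 ± 5.15). These 3 were the members above the 75th percentile of 8.43, and Mcts2 (8.34 and 4.14) and H13 (8.01 and 4.31) followed.

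At the low end stood Rasgrf1, Dlk1, H19 and Asb4. Rasgrf1, an exchange factor for Ras, had 0.684 and 0.517, the lowest mean of the 37. Asb4, a maternally expressed ubiquitin ligase adaptor, had 0.814 and 0.589, and its stronger promoter peak lay at a different start site in each library. With a promoter reach of 1 kb in place of 500 bp its mean value was 3.40 in place of 0.702, so its place at the low end rests on that reach. Dlk1 had 0.801 and 0.576, and H19 had 0.860 and 0.543. Each of these 4 was under the 6th percentile of open protein-coding genes, and apart from Asb4 none had a second promoter peak in either library.

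At the H19 and Igf2 locus, the sites open in both ovaries lay mostly upstream of H19. H19 is a maternally expressed long noncoding RNA, Igf2 a paternally expressed growth factor, and the control region between them is known to bind CTCF on its unmethylated maternal copy. The H19 promoter peak, at chr7:142578141-142578420, had 0.860 in replicate 1 and 0.543 in replicate 2 (0.701 ± 0.224, SD, n = 2). Upstream of it stood 3 further sites shared by both libraries, all with values above that of the promoter. The site 2.11 kb upstream (chr7:142580081-142580420) had 1.04 and 0.694, and the one 2.62 kb upstream (chr7:142580661-142580860) had 1.55 and 0.687. The most distant, 3.68 kb upstream (chr7:142581701-142581940), had 1.04 and 0.962. No other peak was called in either library in the 10 kb upstream of H19.

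These sites sit on the letters known from the control region. The H19-type CTCF motif, searched on both strands, occurs 58 times over the chromosomes and 3 times within 10 kb upstream of H19. Allowing 1 difference, a choice made after the sites were seen, adds 1 more copy with the substitution G5A, counted from 1 at the 5′ end of the motif. The 4 copies are shown because 3 of them lie in the open sites upstream of H19. They read on the minus strand of GRCm38, with the matched letters in capitals:
H19 upstream site 1, chr7:142580301-142580330: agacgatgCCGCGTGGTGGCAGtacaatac
H19 upstream site 2, chr7:142580756-142580785: ggatgctaCCGCGCGGTGGCAGcatactcc
H19 upstream site 3, chr7:142581782-142581811: cagggttgCCGCACGGCGGCAGtgaagtct
H19 upstream site 4, chr7:142582026-142582055: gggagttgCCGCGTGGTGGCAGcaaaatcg
Sites 1, 2 and 3 lie in the 3 shared peaks, 1 in each. A footprint covered 12 of the 14 letters of site 1 in replicate 1 and 14 in replicate 2. At site 2 the covered letters numbered 14 and 5, and at site 3 they were 12 and 14. Footprints therefore overlapped all 3 in both ovaries, although the edges differed. How often other stretches of 14 bases in open sites meet a footprint was not counted. In the members' strongest promoter peaks, footprints covered 23.5% of bases in replicate 1 and 21.5% in replicate 2. Site 4 lay outside the called peaks, with a footprint over 7 letters in replicate 1 and over 0 in replicate 2. The false discovery rate of the cuts, deposited as q-values, reached 2.26e-04 and 3.65e-05 there, so its bases were listed in both libraries without a peak. The motif was chosen as the form known from this control region, so finding copies here is no independent result. Among promoter windows of all genes 12 of 32851 (0.0365%) hold it, and so do 0.0191% of the 78709 windows of shared sites.

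**Figure D2:**
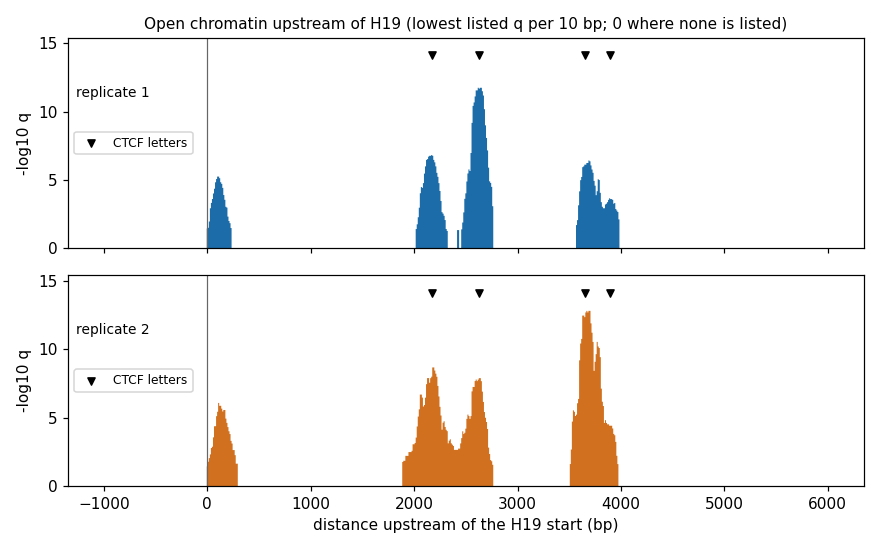
The -log10 of the lowest listed q-value per 10 bp, by distance upstream of the H19 start, in replicate 1 (top) and replicate 2 (bottom), with triangles at the 4 copies of the CTCF letters, including the one with a difference. The 3 open stretches between 2 and 4 kb rise over the triangles in both libraries and exceed the promoter's own.

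Igf2 itself was open in 1 library only. Its strongest promoter peak in replicate 1, chr7:142659341-142659660, had 0.879, and no promoter peak was called in replicate 2. Replicate 1 had 12 peaks over Igf2 and replicate 2 had 1. Of the 12, 5 were below 0.3, in the stretch chr7:142652682-142655340, which does not hold the promoter peak. Peaks of like value had unlike q-values at these neighbouring genes. The Igf2 peak of 0.879 reached 2.98e-59 in replicate 1, whereas the H19 promoter with 0.860 in the same library reached 5.12e-06. The only site of Igf2 shared by both libraries lay in an intron at chr7:142663905-142664046, with 0.528 and 0.524.

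At the Dlk1 to Meg3 locus 2 of 5 members, Dlk1 and Meg3, had an open promoter in both ovaries. Dlk1 is a paternally expressed membrane protein related to Notch ligands, and Meg3, Rian and Mirg are maternally expressed noncoding RNAs. Meg3 had a promoter peak of 1.15 in replicate 1 and 0.995 in replicate 2 (1.07 ± 0.107, SD, n = 2). Its control region lies upstream, and 3 shared sites stood within 20 kb. They lay 12.67 kb (1.17 and 0.746), 8.61 kb (0.567 and 0.445) and 7.45 kb (0.977 and 1.08) before the start. The site 7.45 kb upstream, chr12:109533321-109533780, was the only one of the 3 higher in replicate 2 as deposited. Rian had a peak of 0.347 at 1 of its 19 start sites in replicate 2 alone, Mirg had no site of any kind, and Rtl1, a retrotransposon-derived gene, had none at its start. Inside the gene, Rtl1 had 1 shared site of 1.14 and 1.05, and Rian had one of 1.83 and 0.851 at chr12:109609181-109609360. Between Dlk1 and Meg3 replicate 1 also had a run of low peaks, 25 of 33 under 0.3, where replicate 2 had 10 peaks and 0 under 0.3.

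At Peg3, the strongest open sites lay in the first part of the gene and not at its start. Peg3 is a paternally expressed zinc finger gene that shares a start region with Usp29, a ubiquitin protease gene read in the other direction, and its differentially methylated region is known for repeated YY1 motifs. The shared promoter peak, chr7:6730301-6730640, had 2.99 in replicate 1 and 2.08 in replicate 2 (2.54 ± 0.642, SD, n = 2). The site 0.848 kb into the gene, chr7:6729441-6729700, had 8.75 and 4.18 (6.46 ± 3.24). Further in, the site at 1.788 kb had 5.15 and 3.19 and the one at 2.718 kb had 3.11 and 2.11. Each of the 3 exceeded the promoter in both libraries, and with a promoter reach of 1 kb the first of them would count as the promoter value of Peg3 and Usp29.

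The general YY1 motif, as searched, occurred in 0 of the 169 windows of member sites, against 0.574% of all 78709. Its letters differ from those of the Peg3 form given next, so it could not match those copies. After the sites had been seen, a form known from Peg3, the 11 letters in capitals here, was searched on both strands and found 7 times in Peg3, each on the plus strand, opposite to the gene. The 7 copies are shown because 6 of them lie in the 3 strong sites, with 8 bases to each side:
Peg3 copy 1, chr7:6727293-6727319: ggccaacaAAGATGGCGCCaatgaagg
Peg3 copy 2, chr7:6727415-6727441: ggccaacaAAGATGGCGCCagagggag
Peg3 copy 3, chr7:6727837-6727863: gacaagtaAAGATGGCGCCcaggtggg
Peg3 copy 4, chr7:6728443-6728469: tgctggcaAAGATGGCGCCaaattggg
Peg3 copy 5, chr7:6728872-6728898: ggccaggaAAGATGGCGCCaggatggg
Peg3 copy 6, chr7:6729475-6729501: gtcatttcAAGATGGCGCCaagcgggc
Peg3 copy 7, chr7:6729581-6729607: caccctccAAGATGGCGCCaactgggt
Copies 6 and 7 lie in the strongest site, copies 4 and 5 in the next and copies 2 and 3 in the third, while copy 1 lies outside the called peaks. The q-values at copy 1 reached 1.50e-05 in replicate 1 and 4.06e-11 in replicate 2, so its bases were listed in both libraries. Footprints overlapped 5 of the 7 copies in replicate 1 and 4 in replicate 2. Copies 4, 6 and 7 met one in both libraries, copies 2 and 5 in replicate 1 alone and copy 3 in replicate 2 alone. The share for other stretches of this length in open sites was not counted. At copy 7 the footprint covered all 11 letters in both libraries. No copy was found in a shared site of any other member. Over the chromosomes these letters occur 3838 times, with up to 12 copies within 4 kb, and 79 of 78709 shared sites hold one. Of those 79 sites, 3 are in Peg3.

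**Figure D3:**
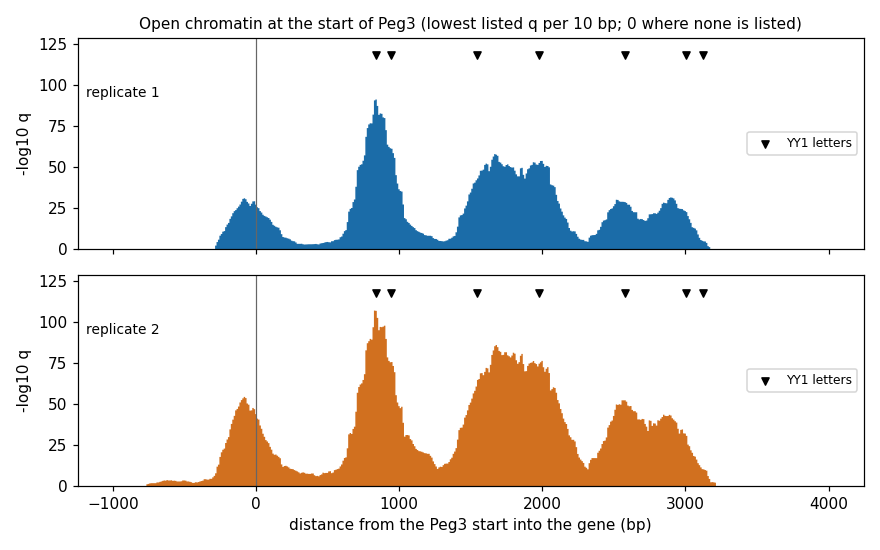
The -log10 of the lowest listed q-value per 10 bp, by distance from the Peg3 start into the gene, in replicate 1 (top) and replicate 2 (bottom), with triangles at the 7 copies of the YY1 letters. The stretch near 0.848 kb is the highest in both libraries. Of the 7 triangles, 6 stand over the 3 sites called inside the gene, and that of copy 1 stands over listed bases outside the called peaks.

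The neighbours of Peg3 were open as well. Zim1, a maternally expressed zinc finger gene, had 5.43 and 2.83 (4.13 ± 1.83). Usp29, 237 kb long, had 9 shared sites in its body, the strongest at chr7:6918361-6918560 with 3.15 and 1.96.

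Among the genes near Snrpn, the cluster lost in Prader-Willi and Angelman syndromes, the values spanned a wide range. Snrpn, which codes for a splicing protein and whose start is the cluster's control region, had 1.60 in replicate 1 and 1.31 in replicate 2 (1.46 ± 0.207, SD, n = 2). Mkrn3, a ubiquitin ligase gene, had 1.95 and 1.47, and Peg12 had 1.19 and 0.825. Ube3a exceeded all of them in both libraries, as given above. Magel2 had 0.436 in replicate 1 alone, centred 341 bp past its start, with a lowest q-value of 4.32e-05 there against 0.0489 in replicate 2. Ndn, which codes for necdin, depends on the annotation: its GENCODE start had no peak, but the RefSeq start lies 1708 bp further downstream. At the RefSeq start a shared peak, chr7:62348181-62348380, had 3.32 and 1.72. Counted there, Ndn would be the member with the highest promoter value among the paternally expressed genes of the cluster.

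At the Kcnq1 locus all 5 members were open at the promoter in both ovaries. Kcnq1ot1 is a paternally expressed antisense RNA whose start, inside an intron of the potassium channel gene Kcnq1, is the control region of the cluster. It had 3.63 in replicate 1 and 3.60 in replicate 2 (3.62 ± 0.0248, SD, n = 2). These are near equal only as deposited, since replicate 1 was higher at most promoters. Kcnq1 itself had 2.71 and 1.54. Cdkn1c, the cell cycle inhibitor p57, had 6.93 and 2.62 (4.77 ± 3.05). Ascl2, a transcription factor of the placenta, had 2.34 and 1.32, and Phlda2, a growth-restraining gene, had 1.31 and 0.962. The Kcnq1 body held 25 shared sites, the most of any member, with the strongest at chr7:143153941-143154140 (5.42 and 3.55), above its promoter in both libraries.

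Igf2r and Airn overlap in opposite directions. Igf2r, the maternally expressed receptor that clears IGF2, had a promoter peak of 3.37 and 1.47 (2.42 ± 1.34). Airn, the paternally expressed noncoding RNA that starts in an Igf2r intron at a methylated region, had 2.23 and 1.77 (2.00 ± 0.326). Replicate 1 was therefore higher at both, Igf2r led in replicate 1, and Airn led in replicate 2. The bodies of both held 8 shared sites. One inside Airn, chr17:12810421-12810620, was higher in replicate 2, with 1.32 and 1.68.

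Peg10 and Sgce share a start region in opposite directions. Peg10 is a retrotransposon-derived placental gene and Sgce codes for epsilon-sarcoglycan, and both are paternally expressed. Their shared promoter peak had 3.84 in replicate 1 and 1.73 in replicate 2 (2.78 ± 1.49, SD, n = 2). As at Peg3, a stronger site lay away from the start region, 1.915 kb into Peg10 at chr6:4749181-4749460, with 12.9 and 5.01 (8.94 ± 5.56). It was the strongest site of a gene body alone among the members. Ppp1r9a, a maternally expressed actin-binding gene of the same cluster, had its highest promoter value, 6.30 and 3.42, at an internal start, and 3.17 and 2.10 at its first. Its body held 14 shared sites, and that of Asb4 held 6, led by chr6:5411041-5411240 with 2.33 and 2.10.

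Gnas codes for the stimulatory G protein alpha subunit and has several start regions with different expressed copies. The downstream start, chr2:174329661-174330200, had 7.43 in replicate 1 and 2.41 in replicate 2 (4.92 ± 3.55, SD, n = 2). The 1A region before it, at chr2:174327301-174327960, had 2.43 and 1.61. Nespas, the paternally expressed antisense RNA, had 4.44 and 2.41 at chr2:174295361-174295640, and the most upstream start of Gnas had 0.632 and 0.543. Of the starts given here, the most upstream start and the 1A region ranked lowest in both libraries, while the downstream start and Nespas were nearly level in replicate 2. Gnas had 6 shared promoter sites in all, and those not given here were not ranked.

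Several paternally expressed genes lie inside an intron of a larger gene. Mcts2, a retrogene for a translation factor, had 8.34 and 4.14 within H13, a signal peptide peptidase gene with 8.01 and 4.31, so host and guest differed by less than the SD of either. H13 also had strong shared sites at chr2:152707681-152707960 (9.45 and 4.797) and chr2:152696841-152697060 (7.86 and 4.81). Peg13, a noncoding RNA in an intron of Trappc9, had 5.70 and 2.42 (4.06 ± 2.32), below its host in both libraries. Zrsr1, a splicing factor retrogene, had 3.91 and 2.28 within Commd1, a copper metabolism gene with 12.4 and 6.39. Nap1l5, a nucleosome assembly protein gene, had 1.45 and 0.988 within Herc3, which had 5.21 and 1.40. The internal start of Inpp5f, which gives its paternally expressed form, had 2.44 and 1.43, against 18.02 and 8.34 at the outer start. In 4 of these 5 pairs the host's start was the higher in both libraries, and H13 and Mcts2 were the exception. The 5 leave out other such pairs. Kcnq1ot1 exceeded its host Kcnq1 in both libraries, and Airn exceeded Igf2r in replicate 2 alone. Nnat, which lies within Blcap (4.89 and 4.32), was below it in both libraries.

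By the highest promoter value at any start, the remaining genes with a methylated start ranged from Plagl1 down to Slc38a4, the lowest of the 20. Plagl1, a zinc finger growth inhibitor, had 4.90 in replicate 1 and 2.62 in replicate 2 (3.76 ± 1.62, SD, n = 2). Grb10, an adaptor of insulin signalling, had 3.71 and 1.88 at an internal start, and 1.47 and 0.870 at its upstream start region. Impact, a regulator of translation, had 3.40 and 2.22. Nnat, a small membrane protein gene, had 2.996 and 2.02, with a second peak of 2.06 and 1.35 nearer its first start. Mest, a hydrolase-like gene, had 2.64 and 1.74, and Slc38a4, an amino acid transporter gene, had 1.30 and 0.759. The Slc38a4 values came from near an internal start. In the RefSeq window of its first start, Slc38a4 had no peak in replicate 1 and one of 0.458 in replicate 2. The highest promoter values of all 6 genes were higher in replicate 1, like those of all 37 members open in both libraries, where 96.7% of open protein-coding genes were.

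Sequences from 6 loci at germline methylated regions are shown because ZFP57, which keeps methylation at imprinted regions, reads the letters TGCCGC. The loci are those whose genes had the highest promoter values among genes with a methylated start, 1 gene per locus. For Inpp5f and Gnas the stretch shown is the internal start and the 1A region, whose own values are lower than those that ranked the genes. Windows before a start come from RefSeq on GRCm38, and the Peg13 and Inpp5f stretches are peaks of replicate 1. TGCCGC, or GCGGCA where it lies on the other strand, is in capitals:
Inpp5f, before the internal start, plus strand, chr7:128688321-128688488: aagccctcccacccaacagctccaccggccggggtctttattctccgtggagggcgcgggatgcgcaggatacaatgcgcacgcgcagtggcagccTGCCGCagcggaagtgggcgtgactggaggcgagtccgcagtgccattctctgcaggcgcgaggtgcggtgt
Mcts2, before the start, plus strand, chr2:152686898-152687147: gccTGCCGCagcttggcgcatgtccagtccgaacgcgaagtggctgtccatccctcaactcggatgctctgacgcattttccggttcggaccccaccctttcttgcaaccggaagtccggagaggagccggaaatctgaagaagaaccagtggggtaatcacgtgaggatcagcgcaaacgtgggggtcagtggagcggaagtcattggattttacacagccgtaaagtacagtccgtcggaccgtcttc
Gnas, before the start in the 1A region, plus strand, chr2:174327499-174327748: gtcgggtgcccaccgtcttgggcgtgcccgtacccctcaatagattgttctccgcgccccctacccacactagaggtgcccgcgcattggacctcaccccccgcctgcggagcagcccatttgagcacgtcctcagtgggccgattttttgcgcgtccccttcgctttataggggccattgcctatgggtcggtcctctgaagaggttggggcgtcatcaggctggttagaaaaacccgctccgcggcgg
Peg13, peak inside the gene, minus strand, chr15:72809941-72810140: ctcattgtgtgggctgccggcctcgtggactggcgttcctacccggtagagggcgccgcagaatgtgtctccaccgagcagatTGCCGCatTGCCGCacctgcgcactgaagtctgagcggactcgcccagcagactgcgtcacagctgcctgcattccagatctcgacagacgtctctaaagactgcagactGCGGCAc
Plagl1, before the start, plus strand, chr10:13090582-13090831: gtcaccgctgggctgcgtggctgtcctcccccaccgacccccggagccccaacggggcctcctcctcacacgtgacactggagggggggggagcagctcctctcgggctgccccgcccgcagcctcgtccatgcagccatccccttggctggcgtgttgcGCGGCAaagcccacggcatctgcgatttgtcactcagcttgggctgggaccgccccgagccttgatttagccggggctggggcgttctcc
Kcnq1ot1, before the start, minus strand, chr7:143296548-143296797: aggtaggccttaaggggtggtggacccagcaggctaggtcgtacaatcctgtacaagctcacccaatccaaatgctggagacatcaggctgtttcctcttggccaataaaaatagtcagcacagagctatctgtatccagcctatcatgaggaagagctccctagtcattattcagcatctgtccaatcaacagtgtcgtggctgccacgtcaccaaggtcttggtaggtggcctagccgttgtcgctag
Peg13 held 3 copies, Inpp5f, Mcts2 and Plagl1 held 1 each, and Kcnq1ot1 and Gnas held 0 in these windows. Kcnq1ot1, with 5 CpG in 250 bases, was the poorest in CpG of the 6, and Gnas had 21. RefSeq gave 300-base windows for 33 of the 43 genes, 50 windows in all, and 11 of the 50 (22%) held TGCCGC on either strand, against 11.6% of 32851 windows of all genes. Windows of 1 gene can overlap: those of Mest that begin at chr6:30737800 and chr6:30737803 each held 2 copies, and both were counted. Among CpG-rich windows the shares were 9 of 25 (36%) and 24.3%. In 150-base windows centred on shared sites, 19 of 169 member sites (11.2%) held it, against 6.87% of all 78709. A match is no proof of binding, and methylation was not measured. The CTCF core motif was in 11 of 169 member windows (6.51%) against 10.5%, the NRF1 motif in 5 (2.96%) against 1.71%, and the NR5A letters TCAAGGNCA in 3 (1.78%) against 2.31%.

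Gene bodies held many of the members' open sites. The 43 genes had 329 distinct sites at promoters or in bodies, of which 169 were shared by both libraries, 98 were in replicate 1 alone and 62 in replicate 2 alone. Of the shared sites 66 were at promoters and 103 in bodies alone, and 16 belonged to 2 or more members because the genes overlap. At least 1 shared body site was found in 37 of 43 genes (86.0%), against 63.9% of protein-coding genes. Body sites here include promoter sites with their centre in the gene. The protein-coding genes were not matched to the members for CpG ratio or number of start sites. The median member had 2 shared sites, or 0.704 per 10 kb of gene, against 1 and 0.354. Genes with more than 2 besides those given above were Trappc9 (19), Gnas (9), H13 (8), Grb10 (6), Impact and Inpp5f (4 each), and Peg3, Peg10, Kcnq1ot1, Ascl2, Plagl1 and Peg13 (3 each). In Grb10 the strongest body site, chr11:11973481-11973660, had 3.35 and 2.36, and in Inpp5f chr7:128690281-128690480 had 4.65 and 3.23.

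**Figure D4:**
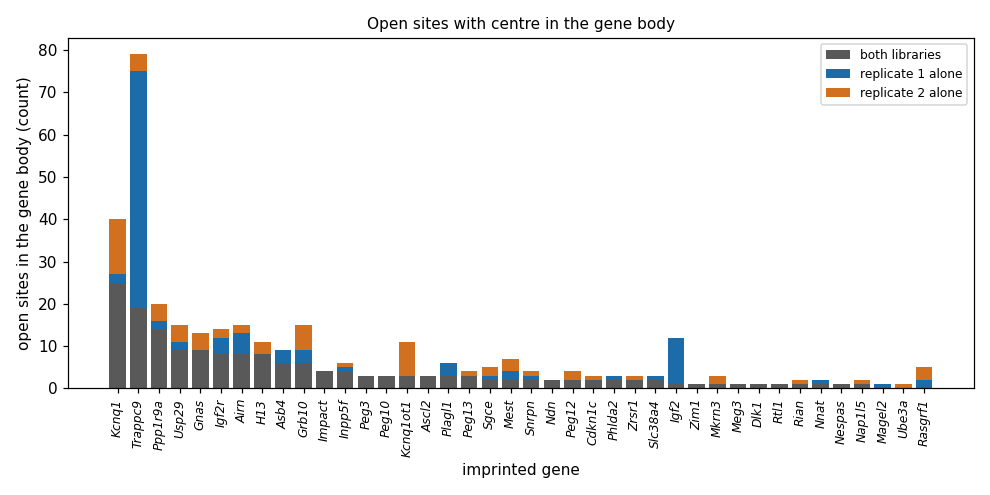
Number of open sites with their centre in the body of each imprinted gene, stacked by whether the site was called in both libraries, in replicate 1 alone or in replicate 2 alone, with genes that have a site in at least 1 library shown. Kcnq1 leads in shared sites with 25, and Trappc9 and Igf2 stand out by sites of replicate 1 alone.

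The sites of replicate 1 alone were concentrated in Trappc9 and Igf2. Trappc9 had 56 such sites, 47 of them under a value of 0.3, and these lay in 1 stretch of 35.6 kb, chr15:72812106-72847667, next to Peg13. Replicate 2 had 23 peaks in the whole of Trappc9 and 0 under 0.3. In that stretch values as low as 0.0521 were called, and over the 56 sites the lowest q-value was 1.32e-23. Elsewhere among the members, 31 sites of replicate 1 alone had a lowest q-value of 4.32e-05, and 0 of the 31 were below 1e-5 while 28 of the 56 in Trappc9 and 8 of the 11 in Igf2 were. With peaks of at least 0.3 alone, the members had 154 shared sites with their centre in a gene body, against 158 with all peaks, and 37 open promoters. The cause of these runs was not tested.

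Promoter peaks of imprinted genes held footprints about as densely as other promoters. The 37 genes had 35 distinct strongest promoter peaks, with 142 footprints in replicate 1 and 168 in replicate 2, which is 1.59 and 1.68 per 100 bp. Protein-coding genes had 1.72 and 1.64. Every one of the 35 peaks held at least 1 footprint in each library, as did 98.5% and 97.6% of those of protein-coding genes. The footprints were only partly at the same places: in shared member sites 306 of 554 footprints of replicate 1 (55.2%) overlapped one of replicate 2, and 315 of 532 (59.2%) the reverse. Impact had the most in 1 peak, 18 in replicate 2, and Rian's peak had 0.

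The difference between the libraries varied from gene to gene. The log2 ratio of replicate 2 over replicate 1 was taken relative to the median of open protein-coding genes, and an interval for counting error only was computed as if 1 step were 1 read, which was not shown. The members' median was 0.10, with 22 genes above 0 and 15 below, and it was -0.02 when each gene was set against genes of like value, with 16 above 0. Kcnq1ot1 had the highest ratio, 0.87 (95% interval 0.70 to 1.04), followed by Meg3 with 0.68 and Snrpn with 0.59. At the low end Gnas had -0.74 (-0.91 to -0.57), Cdkn1c had -0.52 and Ube3a had -0.38. Much of this order depended on the use of a gene's strongest peak. With the values of all its promoter peaks added up, Gnas had -0.33, Cdkn1c -0.13 and Ube3a -0.18. Gnas and Cdkn1c thereby came within the SD of 0.39 over protein-coding genes. Kcnq1ot1 then had 0.79, Meg3 0.64 and Snrpn 0.33, below Slc38a4 and Nap1l5, which had 0.88 each in place of 0.10 and 0.33. The sign turned for Peg10 (from -0.27 to 0.73), Sgce (from -0.27 to 0.43) and Airn (from 0.55 to -0.12). Set against genes of like value, Meg3 had 0.38, Snrpn 0.30 and Ube3a -0.17, while Kcnq1ot1 had 0.80, Gnas -0.75 and Cdkn1c -0.54. With 1 library an animal, a difference between the animals and one between the preparations cannot be told apart.

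**Figure D5:**
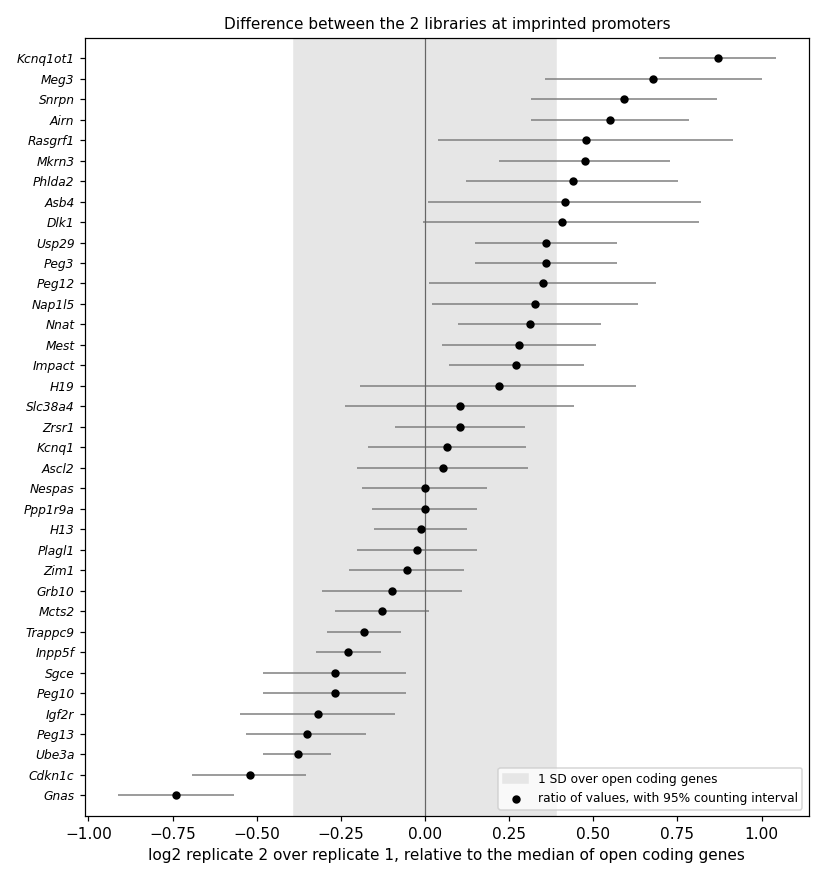
The log2 ratio of promoter values, replicate 2 over replicate 1, relative to the median of open protein-coding genes, for the 37 imprinted genes open in both libraries, with 95% intervals for counting error and the SD over protein-coding genes in grey. The points run from -0.74 at Gnas to 0.87 at Kcnq1ot1.

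Other genes of the imprinting system, chosen by name, were mostly open too, where 66.7% of protein-coding genes were. Promoters of 21 of 26 further imprinted genes and host genes were open in both libraries, with a median value of 2.77, close to the members' 2.54. Nap1l4, a nucleosome assembly protein gene beside Phlda2, had 17.3 in replicate 1 and 11.2 in replicate 2, Copg2, beside Mest, had 15.4 and 5.92, and Commd1 followed. Calcr, Kcnk9, Slc22a2 and Th had no promoter peak in either library, and Zdbf2 had 0.697 in replicate 1 alone. Of 20 genes that set or keep imprints 17 were open, with a median of 7.13. The highest were Kdm1b, a histone demethylase needed for maternal imprints (21.7 and 10.99), Yy1 (18.8 and 7.15) and Dnmt1, the maintenance methyltransferase (12.3 and 5.78). Zfp57 had 1.40 and 0.975, and Ctcf had 7.63 and 3.83. The germ-line genes Ctcfl and Dppa3 had no promoter peak, and Dnmt3l, the cofactor of methylation in oocytes, had 0.484 in replicate 2 alone.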

How the data were processed

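Ovary DNase-seq of 2 animals was analysed from the interval files, 1 set per library, on mm10 (GRCm38) per the labels. For each library the authors deposited 2 peak lists of unequal length, each peak with a signal value, and the longer was used. No source used here gives the scaling of the signal, the aligner or the callers. The authors deposited false discovery rates of the cuts as q-values, listed only under 0.05. Footprints carry a deposited score of 0.01 in every line, so only their positions were used. Depth is known only as steps of the values, which were whole within 0.05 of a step in 100% of peaks.

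Peaks overlapping by at least 1 base in both libraries made a shared site. The promoter value is the highest value of a peak within 500 bp of any GENCODE start. Log2 ratios of the libraries were computed here from the values. Motifs were searched in GRCm38 and in RefSeq windows (GRCm38.p6), 250 bases before to 50 after a start. Tools were Python 3.11.15, numpy 2.4.6, pandas 2.3.3, scipy 1.17.1 and bedtools 2.31.1. The steps were tested on simulated data.

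The members and lists were chosen with earlier results of these data known. Every member is named. From the lists of other imprinted genes and of imprint setting the 3 highest and up to 3 without a peak are named, with Zfp57, Ctcf, Herc3, Th, Zdbf2 and Dnmt3l added after their values were seen. The rule gave as many from each marker list, but those lists are given as counts, with the few genes named there chosen after their values were seen. Members with more shared body sites than the median member, and the 3 highest and 3 lowest ratios, are also named. Alternatives changed the promoter reach, start sites, peak list, peak value, overlap, footprint rule, scaling and motif window, and left out each library.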

Additional observations from a re-analysis of the deposited data

How the results depend on the processing

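The count of 37 open members ranged from 31, with the most upstream start alone (Grb10, Kcnq1, Mest, Plagl1, Slc38a4 and Snrpn lost), to 37 with a reach of 250 bp or of 1 kb. It was 35 with the shorter list (Asb4 and Dlk1 lost), 33 with peaks above the library's median, and 38 to 39 without a replicate. The share of open protein-coding genes, 66.7% in the main setting, was 61.2% with the most upstream start alone. It was 65.1% and 68.2% with a reach of 250 bp and of 1 kb, and 62.8% with the shorter list. With peaks above the median it was 61.2%, and it was 68% without replicate 1 and 68.9% without replicate 2. The median promoter value of 2.54 became 3.62 when the values of a gene's promoter peaks were added up, and ranged from 1.88 to 3.37 without a replicate. With the most upstream start alone, 7 genes had means lower by more than the SD of their libraries: Ppp1r9a 2.63, Impact 1.74, Nnat 1.71, Zrsr1 1.55, Phlda2 0.666, Gnas 0.587 and Ascl2 0.571. With a reach of 1 kb, Peg3 and Usp29 had 6.46 and Asb4 3.40. The 158 distinct shared body sites became 106 with the shorter list, 133 when the overlap had to cover 50% of both peaks, and 219 without replicate 1 and 263 without replicate 2, where sites of 1 library count. Footprints per 100 bp of promoter peak, 1.63 as a mean of the libraries, became 1.74 when an overlap sufficed. The members' median ratio, 0.10, was -0.78 as deposited. The share of windows with TGCCGC, 22%, was 11.2% in windows centred on peaks. The counts of 21 and 17 in the other lists stayed within 16 to 22 and 13 to 18. No paired analysis was possible because there is 1 group only. With 2 animals, 1 library each, the spread rests on a pair of values, and of the members' sites called in 1 library, 55 of 98 in replicate 1 and 24 of 62 in replicate 2 had values under 0.3, where 31.7% and 29.1% of all such sites over the genome did. Peaks of at least 0.3, chosen after seeing the data, left 37 open members and 154 body sites.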
